A study of Mus musculus with 6 samples.

Results

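The genes described here are 29 that make, take in, move and store cholesterol, chosen by symbol from the 54532 genes of the deposited count table. Each of the 29 symbols had exactly 1 row. RNA was sequenced from the mouse testis line TM3, established from Leydig cells and grown in medium with 2.5% fetal bovine serum and 5% horse serum. The cells overexpressing A20 gave 3 libraries and the control cells, whose genotype is labelled WT, gave 3 more. A20 is a ubiquitin-editing enzyme, the product of Tnfaip3, that restrains NF-kB signalling. How A20 was overexpressed, what the control cells carried in its place, and whether the libraries of a group came from separate cultures are not stated, so the p-values measure only the spread between these libraries.

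Animal cells build cholesterol from acetyl-CoA through mevalonate, farnesyl diphosphate, squalene and a chain of sterol intermediates, and they also take it in with lipoproteins. When membranes of the endoplasmic reticulum are poor in sterol, the escort protein SCAP carries SREBP precursors to the Golgi, where they are cut to free a transcription factor that raises RNA of the synthesis enzymes. INSIG proteins hold SCAP back when sterol is plentiful. Leydig cells use cholesterol as the raw material of testosterone.

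Total counts ran from 15097570 to 16917979 in the A20 libraries and from 13841287 to 15349354 in the control libraries. Levels are given as CPM, the count divided by the library's total and scaled up equally for all libraries. A level of 3 counts corresponded to 0.177 to 0.217 CPM. That is the limit a count of 0 allows, for counting error only. RNA of Tnfaip3 itself was at 41.0, 33.7 and 43.6 CPM in A20 libraries 1, 2 and 3, against 30.9, 11.9 and 15.2 CPM in control libraries 1, 2 and 3, so each A20 library lay above each control library. Its log2 fold change was 1.08 ± 0.30 (SE, edgeR adjusted p = 0.331) with all 6 libraries and 1.51 ± 0.19 (SE, adjusted p = 0.000256) without control replicate 1. Control replicate 1 stood apart from the other libraries. Its summed level of 7 Leydig cell markers was 2039 CPM, whereas the A20 libraries held 5.26, 7.86 and 6.03 CPM and control replicates 2 and 3 held 3.97 and 6.29 CPM. In those 5 libraries 4 of the 7 markers, Cyp11a1, Hsd3b1, Cyp17a1 and Lhcgr, had at most 3 counts, so the labelled cell type was not borne out by its defining markers there. The summed level of 4 stromal markers was 12913, 13080 and 12444 CPM in the A20 libraries, against 2982, 9355 and 11768 CPM in control replicates 1, 2 and 3. Col1a1 and Col1a2 made up most of it, and Dcn of the same list went the other way against control replicates 2 and 3, at 52.2, 45.0 and 44.3 CPM in A20 libraries and 145 and 231 CPM in those controls. Summed macrophage markers reached at most 38.8 CPM in A20 libraries and 30.9 CPM in control libraries, endothelial markers at most 0.383 CPM in A20 libraries and 35.6 CPM in control replicate 1, and germ cell markers 12.2 CPM in A20 libraries and 9.38 CPM in control libraries. Of these markers, Adgre1, Ptprc and Dazl were at 0 throughout. Cdh5 alone gave 35.1 CPM of the endothelial sum in control replicate 1, with Pecam1 at 0.586 CPM and Kdr at 0 there. Cd68 made up most of the macrophage sum in each library. Sertoli cell markers summed to 132 to 148 CPM in A20 libraries and 140 to 299 CPM in control libraries, with Sox9 and Fshr at 0 throughout. Wt1 and Clu made up nearly all of that sum. Counts of genes called and median changes are therefore given with all 6 libraries and without control replicate 1. Values of some genes are given from 1 of these fits only, as named. The part of these library differences in the results was not tested.

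The core sequence bound by NF-Y, the factor that works beside SREBP at many sterol genes, was a frequent feature of the genes' upstream regions. Promoter sequences came from RefSeq (GRCm38.p6), and the 250 bases before each start were searched on both strands. The table held 23 of the 29 genes. Stard4, Fdps, Sqle, Fdft1, Scarb1 and Npc1 had no entry, so the counts that follow leave them out. A gene was counted if any of its listed promoters held the letters. CCAAT, the NF-Y core, was found upstream of 21 of these 23 genes (91.3%). The share was 41.3% of the 9307 genes in the table that were tested for expression and 37.5% of all its 27025 genes. The sterol regulatory element core TCACNCCAC was found for 1 of 23 genes, against 1.26% of tested genes and 1.22% of all genes there. The E-box CACGTG was found for 4 of 23, against 10% and 6.86%. A match is a description of these letters and not a measured binding site. Acat2 and Scap were the 2 genes in the table without CCAAT in any listed promoter. The regions printed here are those of Hmgcs1, the gene with both elements, of Mvk, which had 5 CCAAT cores, of Sc5d, which was low in each A20 library, and of Lipa, which passed the test in the 5-library fit. Capitals mark CCAAT, its complement ATTGG, and in Hmgcs1 also TCACCCCAC. In Hmgcs1 the sterol element core ended 128 bases before the start and lay 34 bases from the nearest CCAAT core.
Hmgcs1, chr13:119690101-119690350, plus strand: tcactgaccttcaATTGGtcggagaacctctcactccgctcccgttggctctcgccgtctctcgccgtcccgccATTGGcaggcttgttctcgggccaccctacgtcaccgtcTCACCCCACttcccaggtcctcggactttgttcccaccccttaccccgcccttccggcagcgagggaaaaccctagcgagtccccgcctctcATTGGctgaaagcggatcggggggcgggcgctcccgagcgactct
Mvk, chr5:114444019-114444268, plus strand: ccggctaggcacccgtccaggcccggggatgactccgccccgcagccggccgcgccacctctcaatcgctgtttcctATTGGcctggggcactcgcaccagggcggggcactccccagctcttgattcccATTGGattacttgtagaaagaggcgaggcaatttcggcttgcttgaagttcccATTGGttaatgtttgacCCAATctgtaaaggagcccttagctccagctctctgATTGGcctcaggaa
Sc5d, chr9:42264301-42264550, minus strand: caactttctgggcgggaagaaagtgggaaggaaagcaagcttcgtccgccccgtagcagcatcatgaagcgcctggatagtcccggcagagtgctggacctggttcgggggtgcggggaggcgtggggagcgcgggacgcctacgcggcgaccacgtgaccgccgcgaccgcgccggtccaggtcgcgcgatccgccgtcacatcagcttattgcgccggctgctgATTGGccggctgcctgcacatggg
Lipa, chr19:34527475-34527724, minus strand: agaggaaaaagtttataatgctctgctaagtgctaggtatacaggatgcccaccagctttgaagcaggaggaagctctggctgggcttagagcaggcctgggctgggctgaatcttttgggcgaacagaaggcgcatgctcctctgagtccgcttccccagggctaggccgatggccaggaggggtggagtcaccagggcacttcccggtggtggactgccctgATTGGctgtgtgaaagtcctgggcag

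The question of the series was how A20 overexpression changes gene expression in these cells. RNA of the 17 synthesis enzyme genes summed to 1775, 2442 and 2154 CPM in A20 libraries 1, 2 and 3, against 3647, 3174 and 2212 CPM in control libraries 1, 2 and 3. Control replicates 1 and 2 lay above each A20 library, while control replicate 3 lay within the A20 range. These sums are scaled by total count. The library size behind the authors' FPKM was 1.11 times the total for control replicate 1. For control replicate 2 it was 0.936 times, so which of these controls is the highest depends on the scaling. In bulk RNA, fewer cells of a kind and less RNA per cell cannot be told apart.

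**Figure D1:**
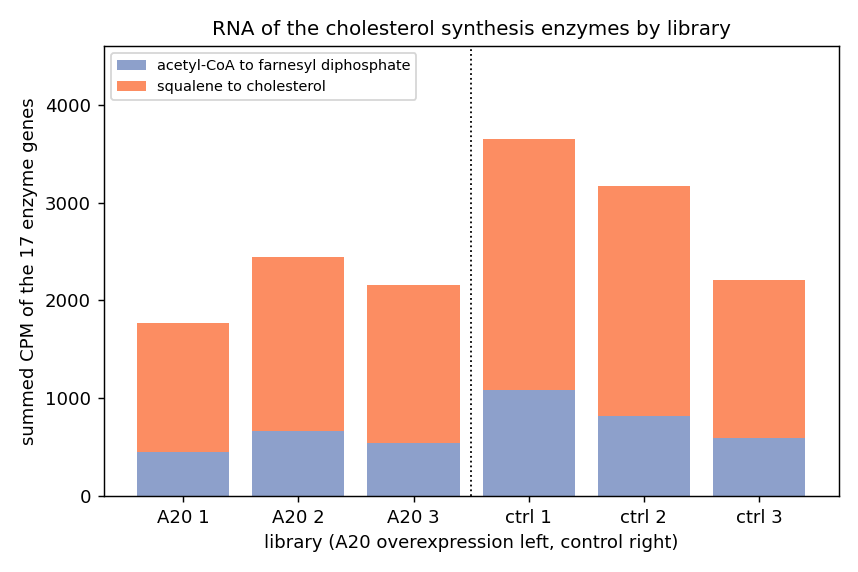
Summed CPM of the 17 enzyme genes in each library, split into the 7 genes from acetyl-CoA to farnesyl diphosphate and the 10 from squalene to cholesterol. A20 libraries reach 1775 to 2442 CPM and control libraries 2212 to 3647 CPM.

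With all 6 libraries, edgeR's quasi-likelihood test called 0 of the 28 genes tested in either direction at an adjusted p of 0.05, and 7 had an unadjusted p under 0.05, all lower in A20 cells. The other tools run on 6 libraries, DESeq2, limma-voom and limma-trend, also called 0. Over all 13350 genes tested, 0.00749% were called in each direction, and 5.86% and 4.19% had an unadjusted p under 0.05 with a lower and a higher value. The median log2 fold change of A20 over control was -0.28 for the 28 genes and -0.03 for all genes tested. Of the 28, 19 had a negative value, whereas 54% of all genes did. The groups did not overlap in CPM for 4 genes that were lower in A20 libraries, namely Idi1, Fdps, Lss and Sc5d, and for 1 that was higher, Insig2. Over all genes these shares were 9.27% and 7.62%. By the deposited FPKM, which is scaled by gene length and another library size, Idi1 and Insig2 overlapped. Idi1 was at 15.43 FPKM in A20 replicate 2 and 15.38 FPKM in control replicate 3. Insig2 was at 18.98 FPKM in A20 replicate 3 and 19.07 FPKM in control replicate 2.

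Without control replicate 1, Stard4 and Lipa were called lower in A20 cells, and 0 genes were called higher. DESeq2 called both of these and Fdps lower, limma-voom called Fdps and neither of them, and limma-trend called 0. Over the 14 other settings tried on these 5 libraries, Stard4 was called in 3 and Lipa in 5. Over all 13658 genes tested in this fit, 2.68% were called lower and 1.92% higher. An unadjusted p under 0.05 was found for 10 of the 28 genes with a lower value and for 1, Scap, with a higher value, against 11.2% and 10.4% of all genes. The median log2 fold change was -0.25 for the 28 genes and -0.0028 for all genes tested. A negative value was found for 23 of the 28, against 50.3% of all genes. Groups did not overlap for 6 genes lower in A20 libraries (Idi1, Fdps, Lss, Sc5d, Stard4 and Lipa) and for 3 higher (Scap, Insig2 and Tm7sf2), against 17.2% and 20.7% of all genes.

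**Figure D2:**
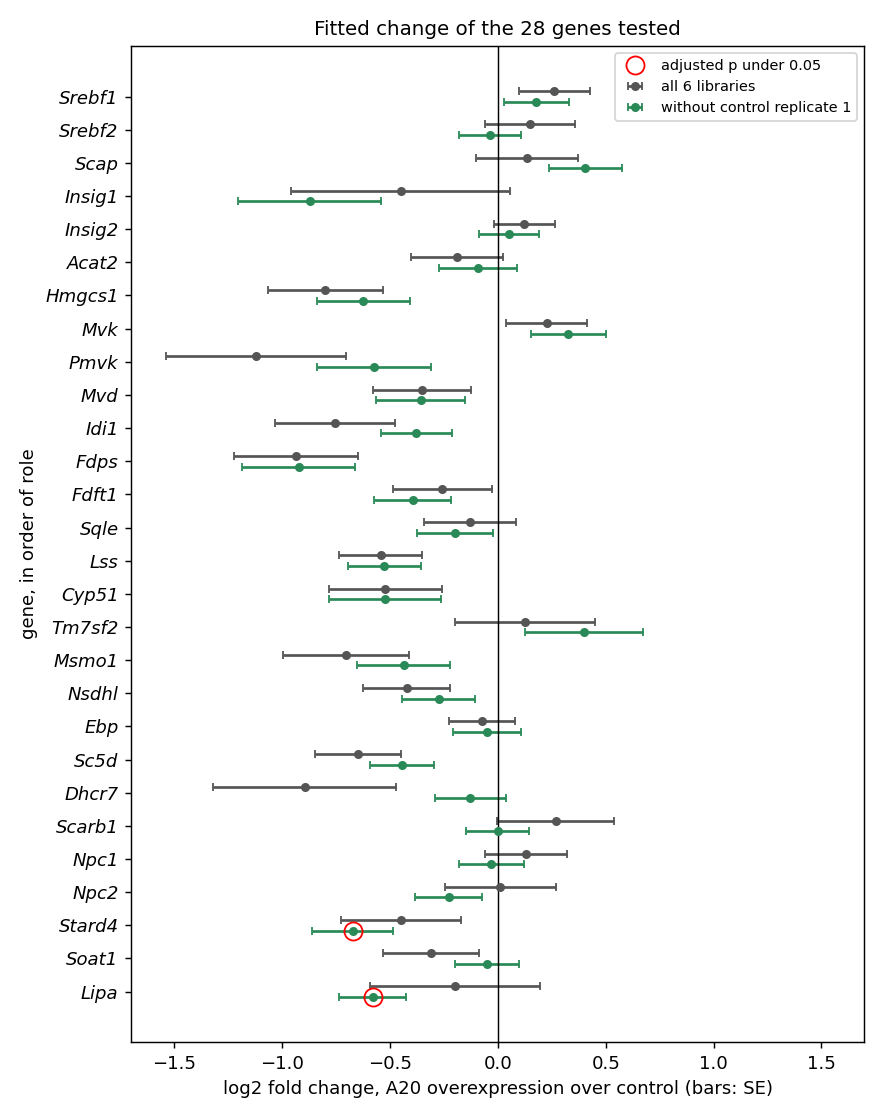
Fitted log2 fold change of A20 overexpression over control with its approximate SE for the 28 genes tested, with all 6 libraries and without control replicate 1. Stard4 (-0.67) and Lipa (-0.58), both without control replicate 1, are the circled values with an adjusted p under 0.05.

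Stard4 encodes a soluble sterol carrier that moves cholesterol between membranes. It is ENSMUSG00000024378, on the minus strand of GRCm38 chromosome 18 from 33199355 to 33213862. Stard4 RNA was at 195, 257 and 199 CPM in A20 libraries 1, 2 and 3, against 219, 403 and 269 CPM in the control libraries. Control replicate 1 lay inside the A20 range, and control replicate 2 was the highest library. Without control replicate 1 it fell 1.60-fold (log2 fold change -0.67 ± 0.19 SE, edgeR adjusted p = 0.0494), and 3 of 3 A20 libraries were lower. With all 6 libraries the value was -0.45 ± 0.28 (SE, adjusted p = 0.617). The call in the 5-library fit was lost when A20 replicate 1 (edgeR adjusted p = 0.199), A20 replicate 2 (0.0755), A20 replicate 3 (0.216) or control replicate 2 (0.337) was left out as well. It held without control replicate 3 (0.000163), where 1 control library remained. Over these 5 fits the log2 fold change of Stard4 ranged from -0.97 without control replicate 3 to -0.30 without control replicate 2.

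Lipa encodes lysosomal acid lipase, which frees cholesterol from the esters that arrive with lipoproteins. It is ENSMUSG00000024781, on the minus strand of chromosome 19 from 34492318 to 34527474. Lipa RNA was at 60.8, 67.8 and 62.6 CPM in A20 libraries, against 32.1, 105 and 80.8 CPM in control libraries. The A20 libraries lay close together, between control replicate 1 below and control replicates 2 and 3 above. Without control replicate 1 Lipa fell 1.49-fold (log2 fold change -0.58 ± 0.16 SE, edgeR adjusted p = 0.0405). With all 6 libraries the value was -0.20 ± 0.39 (SE, adjusted p = 0.899). The 5-library call was lost without A20 replicate 1 (edgeR adjusted p = 0.175), A20 replicate 2 (0.103), A20 replicate 3 (0.181) or control replicate 2 (0.249), and it held without control replicate 3 (0.000696). The log2 fold change of Lipa ranged over these fits from -0.79 without control replicate 3 to -0.33 without control replicate 2. The sterol esterifying enzyme Soat1, which works in the opposite direction, stood at 129, 104 and 112 CPM in A20 libraries, against 210, 125 and 107 CPM in control libraries. The Soat1 groups overlapped, and its log2 fold change without control replicate 1 was -0.05 ± 0.15 (SE).

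**Figure D3:**
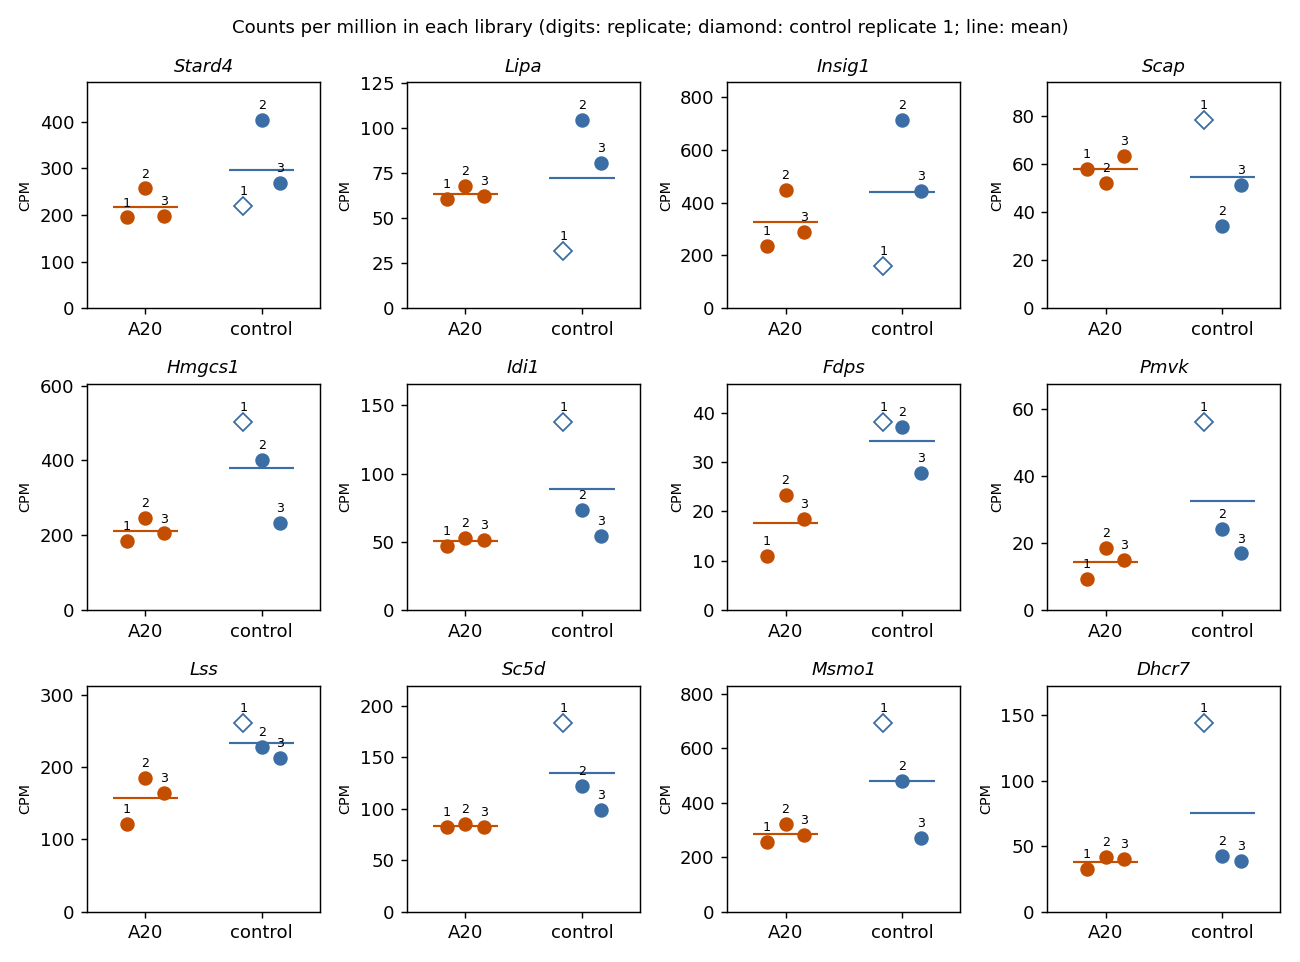
CPM of 12 genes in each A20 and control library, with the replicate number above each point and the group mean as a line. In the panel of Idi1, for example, A20 libraries lie at 47.3 to 52.8 CPM and control libraries at 54.3 to 138 CPM, with control replicate 1, the open diamond, the highest.

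Among the regulators, Insig1, the SCAP anchor whose own gene is a known SREBP target, varied most between libraries. It stood at 236, 449 and 290 CPM in A20 libraries, against 161, 712 and 444 CPM in control libraries. Control replicate 1 held the lowest value of the 6 libraries and control replicate 2 the highest, and A20 replicate 2 lay above control replicate 3. Its log2 fold change of -0.87 ± 0.33 (SE) without control replicate 1 missed the threshold (edgeR adjusted p = 0.196). The value was -0.45 ± 0.51 (SE) with all 6 libraries. Leaving out A20 replicate 2 from the 5-library fit brought the edgeR adjusted p of Insig1 to 0.0414, at a log2 fold change of -1.19.

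Insig2, its paralog, stayed within 61.6 to 68.6 CPM in all 6 libraries. Its A20 libraries, at 68.6, 67.1 and 66.1 CPM, lay above the controls, at 61.6, 62.0 and 64.9 CPM. By FPKM the Insig2 groups overlapped. Its log2 fold change of 0.12 ± 0.14 (SE) with all 6 libraries missed the threshold in edgeR (adjusted p = 0.807). Scap RNA stood at 58.1, 52.3 and 63.4 CPM in A20 libraries, against 78.4, 34.4 and 51.3 CPM in control libraries. Control replicate 1 was the highest Scap library, and the other controls lay below each A20 library. The log2 fold change of Scap was 0.41 ± 0.17 (SE) without control replicate 1 (edgeR unadjusted p = 0.0276, adjusted p = 0.174) and 0.13 ± 0.24 (SE) with it.

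The transcription factor gene Srebf2, which drives the synthesis enzymes, ranged from 478 to 538 CPM in A20 libraries and from 373 to 543 CPM in control libraries. Srebf1, whose products include the factor of fatty acid synthesis genes, ranged from 97.8 to 101 CPM in A20 libraries and from 71.5 to 101 CPM in control libraries. Neither passed, with log2 fold changes of -0.03 ± 0.14 (SE) for Srebf2 and 0.18 ± 0.15 (SE) for Srebf1 without control replicate 1. RNA of these factors does not show how much of the cut, active form was present.

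Of the 7 genes from acetyl-CoA to farnesyl diphosphate, 6 had a lower fitted value in A20 cells in both fits, and 0 passed. Hmgcs1, which condenses acetoacetyl-CoA and acetyl-CoA, stood at 184, 246 and 205 CPM in A20 libraries, against 504, 401 and 232 CPM in control libraries. A20 replicate 2 lay above control replicate 3, so the groups overlapped. The log2 fold change of Hmgcs1 was -0.80 ± 0.27 (SE) with all 6 libraries (edgeR unadjusted p = 0.0157, adjusted p = 0.421) and -0.62 ± 0.22 (SE) without control replicate 1 (adjusted p = 0.117).

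Fdps makes farnesyl diphosphate and is ENSMUSG00000059743, on the minus strand of chromosome 3 from 89093588 to 89101959. Fdps RNA was at 11.1, 23.3 and 18.4 CPM in A20 libraries, against 38.2, 37.1 and 27.7 CPM in control libraries. Each A20 library lay below each control library. The log2 fold change was -0.94 ± 0.29 (SE) with all 6 libraries (edgeR adjusted p = 0.397) and -0.92 ± 0.26 (SE) without control replicate 1 (adjusted p = 0.062), so the 2 fits gave nearly the same value. In the 5-library comparison DESeq2 (adjusted p = 0.0291) and limma-voom (adjusted p = 0.0476) called Fdps lower.

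Idi1, the isomerase that makes the dimethylallyl unit, stood at 47.3, 52.8 and 51.6 CPM in A20 libraries, against 138, 73.4 and 54.3 CPM in control libraries. By CPM the A20 libraries were all lower, and control replicate 3 was only just above them. By FPKM, A20 replicate 2 lay above control replicate 3 for Idi1. Pmvk, which adds the second phosphate to mevalonate, stood at 9.34, 18.5 and 14.9 CPM in A20 libraries, against 56.2, 24.3 and 16.9 CPM in control libraries. Control replicate 1 was over 2 times as high as any other Pmvk library, and the groups overlapped. The values of both genes moved with that library. The log2 fold change of Pmvk was -1.12 ± 0.42 (SE) with it and -0.57 ± 0.26 (SE) without it, and that of Idi1 was -0.76 ± 0.28 (SE) and -0.38 ± 0.16 (SE). Acat2 (the acetoacetyl-CoA thiolase), Mvk (mevalonate kinase) and Mvd (the decarboxylase) overlapped between the groups. Mvk was the gene of these 7 with a higher fitted value, 0.33 ± 0.17 (SE) on the log2 scale without control replicate 1 (edgeR adjusted p = 0.285).

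Of the 10 genes from squalene to cholesterol, 9 had a lower fitted value in both fits and 0 passed. Lss, which closes the sterol rings, stood at 122, 185 and 164 CPM in A20 libraries, against 260, 228 and 213 CPM in control libraries. Sc5d, a desaturase of the late steps, stood at 82.6, 84.9 and 82.5 CPM in A20 libraries, against 183, 122 and 98.7 CPM in control libraries. Each A20 library lay below each control library for both genes. Without control replicate 1 the log2 fold change was -0.53 ± 0.17 (SE) for Lss (edgeR adjusted p = 0.079) and -0.44 ± 0.15 (SE) for Sc5d (adjusted p = 0.0884).

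Cyp51, the lanosterol demethylase and the most abundant of the 10 per length, stood at 235, 333 and 323 CPM in A20 libraries, against 472, 534 and 293 CPM in control libraries. Msmo1, the methylsterol oxidase, stood at 256, 321 and 283 CPM in A20 libraries, against 691, 480 and 271 CPM in control libraries. Both genes overlapped between the groups, because control replicate 3 lay inside the A20 range. Their log2 fold changes without control replicate 1 were -0.52 ± 0.26 (SE) for Cyp51 and -0.44 ± 0.22 (SE) for Msmo1, and neither passed (edgeR adjusted p = 0.276 and 0.258).

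Fdft1, squalene synthase, stood at 191, 266 and 220 CPM in A20 libraries, against 241, 336 and 241 CPM in control libraries, with overlap through A20 replicate 2. Its exons overlap those of the abundant Ctsb on the opposite strand over 774 bases, so reads there could not be told apart without a strand setting. Dhcr7, the enzyme of the last reduction, stood at 32.6, 41.8 and 40.6 CPM in A20 libraries, against 144, 42.6 and 39.0 CPM in control libraries. Only control replicate 1 was high. Its log2 fold change was -0.90 ± 0.42 (SE) with all 6 libraries and -0.13 ± 0.17 (SE) without that library. Sqle (squalene epoxidase), Nsdhl and Ebp had fitted values of -0.20, -0.27 and -0.05 without control replicate 1. Tm7sf2, a sterol reductase at 6.20 to 12.3 CPM over all 6 libraries, was the gene of the 10 with a higher one, 0.40 ± 0.27 (SE), and part of its exons is shared with Vps51.

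Of the uptake genes, Scarb1, the receptor that takes cholesteryl esters from HDL, stood at 171, 209 and 201 CPM in A20 libraries, against 106, 170 and 210 CPM in control libraries. Control replicate 1 was the low library, and the groups overlapped. Scarb1 had a log2 fold change of 0.27 ± 0.27 (SE) with all 6 libraries and -0.0015 ± 0.15 (SE) without control replicate 1. In the uptake group Mylip, a ubiquitin ligase that marks lipoprotein receptors for breakdown and is known to be induced by the sterol sensor LXR, had 0 counts in all 6 libraries. It was therefore not tested, and a count of 0 allows a level of up to 0.217 CPM in the shallowest library.

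The lysosomal cholesterol exporters Npc1 and Npc2 did not pass. Npc2 stood at 256, 340 and 270 CPM in A20 libraries, against 205, 332 and 329 CPM in control libraries, with overlap. Npc2 had a log2 fold change of 0.01 ± 0.26 (SE) with all 6 libraries and -0.23 ± 0.16 (SE) without control replicate 1. Npc1 ranged from 57.8 to 64.8 CPM in A20 libraries and from 48.7 to 71.0 CPM in control libraries.

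The enzyme genes also differed between libraries of the same group, and in a common order. Among the 3 A20 libraries, replicate 2 was the highest for 17 of 17 enzyme genes, against 31.7% of all genes tested, and replicate 1 was the lowest for 15 of 17, against 31.9%. The ratio of the highest to the lowest A20 library ran from 1.03 for Sc5d to 2.10 for Fdps. This order was not confined to the enzymes: A20 replicate 2 was the highest A20 library for 24 of the 28 genes, and for the summed CPM of the regulators (940, 1208 and 1025 in A20 libraries 1, 2 and 3), the uptake genes and the trafficking genes. Of the 8 further lists, those of SREBP cleavage and of steroid production also had their highest A20 sum in replicate 2, and the other 6 did not. Control replicate 2 lay above control replicate 3 for 14 of 17 enzyme genes, against 39.1% of all genes tested. Across the 5 libraries without control replicate 1, the median Pearson r of log2 CPM over the 136 pairs of enzyme genes was 0.78. It ranged from -0.77 to 0.99, with 113 pairs above 0. This r describes 5 libraries that share their depth between genes, and it includes the difference between the groups. No r was computed for other genes, so whether such values are particular to the enzymes was not tested.

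**Figure D4:**
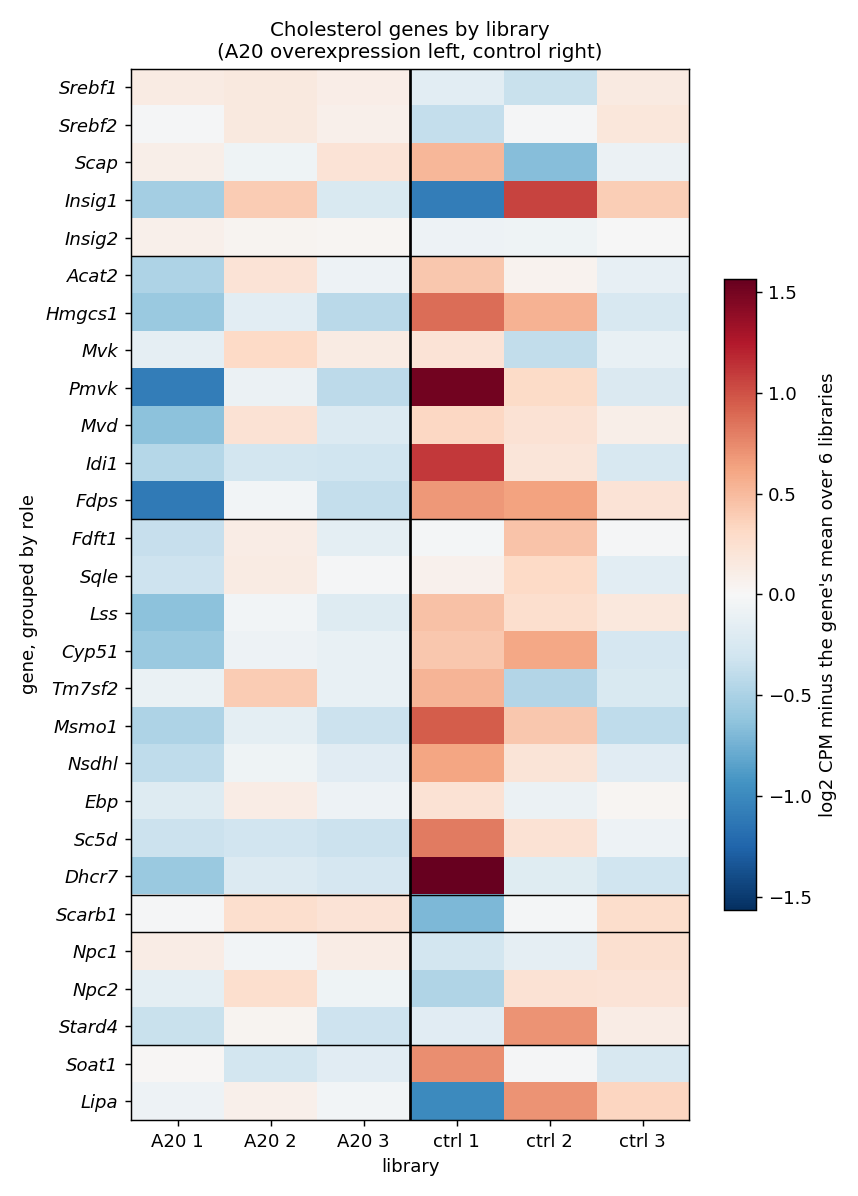
Log2 CPM of the 28 genes with counts, minus each gene's mean over the 6 libraries, with A20 libraries on the left and control libraries on the right. A20 replicate 1 is the lowest A20 library in 15 of 17 enzyme rows and control replicate 1 the highest of all 6 in 13, while Insig1 and Lipa are lowest in control replicate 1.

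Control replicate 1 held the highest of the 6 CPM values for 13 of 17 enzyme genes, against 40.7% of all genes tested. That count depends on the scaling. The library size behind the deposited FPKM was 1.11 times the total count for this library and 0.936 to 1.01 times for the others. By FPKM, control replicate 1 was not the highest for Mvd, Fdps, Lss, Ebp and Tm7sf2, which are among the 13. The CPM ratio of control replicate 1 to the mean of the other 5 libraries was 3.66 for Dhcr7, 3.35 for Pmvk, 2.47 for Idi1, 2.14 for Msmo1 and 1.99 for Hmgcs1. The same library held the lowest CPM for 7 of the 28 genes, against 21.7% of all genes tested, so the count over the 28 was near that share. It was not spread evenly over the roles, with 0 of 17 enzyme genes. The 7 were 3 of 5 regulators, the 1 uptake gene tested, 2 of 3 trafficking genes and 1 of 2 genes of esterification and hydrolysis. Its ratio to the mean of the other 5 was 0.379 for Insig1, 0.426 for Lipa, 0.552 for Scarb1 and 0.67 for Npc2. Srebf2, at a ratio of 0.734, was among the low genes, and Scap, at 1.51, among the high ones. Soat1 was high as well, at 1.82. This library was also the one with Leydig cell markers, and the part of that in these values was not tested.

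Per length, the 28 genes with counts spanned a wide range. Mean FPKM over the 6 libraries was highest for Insig1 (125.5, range 46.8 to 246), Cyp51 (82.4, range 53.1 to 129), Sqle (73.4, range 57.8 to 96.6) and Srebf2 (67.6, range 46.6 to 76.8). These ranges overlap, so the order of neighbours is not fixed. Within the regulators, Insig2 at a mean of 18.7 FPKM and Srebf1 at 16.3 FPKM lay well below their paralogs Insig1 and Srebf2. Tm7sf2 (1.55), Npc1 (5.60) and Fdps (6.12) were the lowest by mean FPKM. Each of these shares exon bases with another gene, as do genes of higher mean FPKM such as Cyp51, Fdft1 and Hmgcs1. On the same strand, Fdps shares 1124 bases with Gm43738, which had 1 count over all libraries, and Tm7sf2 shares 532 with Vps51. Npc1 shares 511 bases with Rmc1 on the opposite strand. The deposited coordinates of Tm7sf2 and Npc1 differ from those of GENCODE M21, from which the overlaps were taken. How reads over shared bases were counted is not stated, and their part in these low values was not tested. The low value of Fdps is per gene length as deposited, and its neighbours in the pathway, Idi1 and Fdft1, had means of 19.4 and 59.0 FPKM.

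Genes around the pathway were read from 8 further lists. Of the 68 genes reported from them, 62 were tested, and edgeR called 0 in either fit, as did DESeq2, limma-voom and limma-trend. An unadjusted p under 0.05 in edgeR was found for 3 genes lower and 1 higher in A20 cells with all 6 libraries, against 5.86% and 4.19% of all genes, and for 2 lower and 6 higher without control replicate 1, against 11.2% and 10.4%. Each of these counts, out of 62, is a smaller share than that over all genes.

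Each pair of values that follows is a log2 fold change with 6 libraries and then with 5. The genes of SREBP cleavage and sterol-dependent degradation kept 8, with medians of 0.09 and 0.05. Fatty acid synthesis kept 13 genes, with medians of -0.13 and -0.05, and its most abundant gene, the desaturase Scd2, had -0.07 and -0.18. The isoprenoid branch kept 12 genes with medians of 0.09 and 0.01, and Nus1, a subunit of the dolichol-making enzyme, had -0.06 and -0.22. Efflux and LXR genes kept 4 of 6 with medians of 0.16 and 0.09. Abcg1 had 0 counts in all libraries, and Ncor1, a nuclear corepressor, had -0.09 and -0.27. Lipoprotein receptor genes kept 6 of 7 with medians of 0.06 and -0.10, and Lrp1, a large endocytic receptor, had 0.23 and 0.04. Cd36, a scavenger receptor, stood at 46.8 CPM in control replicate 1 with no count in the other 5 libraries. Sterol transfer genes kept 12 with medians of 0.07 and -0.04, and the oxysterol-binding protein gene Osbp had 0.13 and -0.09. The cholesteryl ester list, which besides hydrolases holds the esterifying enzyme gene Soat2, kept 3 genes with medians of 0.00083 and 0.32. Nceh1, a neutral ester hydrolase, had 0.30 and 0.32, and Soat2 had -0.94 and 0.73. Steroid production kept 4 of 7 with medians of -1.39 and 0.05, where Cyp11a1, at 851 CPM in control replicate 1 and at most 0.144 CPM elsewhere, did not pass the filter on low counts.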

How the data were processed

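RNA counts per gene were analysed for 3 A20-overexpressing and 3 control libraries of TM3 cells, grouped by their titles. The deposited values are whole-number counts and, in a second table, FPKM values by the authors. The genome build was GRCm38 (mm10), per the submitters' processing notes, and libraries were made from 1.3 ug of RNA with an mRNA kit, per the labels' protocols. The aligner, counter and strand setting are not given in the sources used here. The FPKM values equalled the count over gene length and a library size within 0.1% for each gene with at least 10 counts, checked per library. CPM values use the total count of the library.

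The test was edgeR 4.0.16 (R 4.3.3), quasi-likelihood F, with TMM factors, a robust fit and the tool's default filter on low counts. P-values were adjusted by Benjamini-Hochberg across the whole filtered table, and group was the single term. SE, which is approximate, is the log2 fold change over the square root of F. Overlapping exons and GC content came from GENCODE M21. On simulated counts this procedure, run on 13350 genes in 6 libraries, found 34% of planted 2-fold changes and 90% of 4-fold ones. On 13658 genes in 5 libraries it found 88% and 100%. It also made 11 false calls with 6 libraries and 17 with 5. Changes were planted in 200 genes of at least 5 CPM. All libraries of a group shared 1 mean per gene, so no library that stands apart was simulated. Alternatives were other factors and filters, DESeq2 1.42.0, limma 3.58.1 on counts and on log2(FPKM + 1) or log2(FPKM + 0.1), a replicate block, GC and length offsets, and leaving out each library. Members and lists, companion lists included, were chosen with earlier results of these data known. Values in every library are given for genes with an unadjusted p under 0.05 in either fit, for those whose control replicate 1 lay over 1.5 times beyond the other 5 libraries, and for the gene of highest mean FPKM in each role. Of a companion list, called genes or else the gene of highest mean CPM is named, except in the list of SREBP cleavage, where none is. Counts of any 2 libraries differed by at least 8.32 in chi-square per degree of freedom, so none was a repeat of another. Some genes of the pathway and of the companion lists are not reported here.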

Additional observations from a re-analysis of the deposited data

How the results depend on the processing

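With all 6 libraries, 0 of 28 genes were called in either direction under each alternative run, except 2 lower without control replicate 1. Without that library, 2 genes were called lower in the fit as planned. This count was 1 with RLE factors, upper-quartile factors or a filter of 1 CPM in 3 libraries, where Lipa was called and Stard4 was not, 1 with limma-voom, where Fdps was called and neither Stard4 nor Lipa, and 0 with library size alone, without robust estimation, with GC and length offsets and in each of the 3 limma-trend fits on FPKM. It was 3 with DESeq2 (Stard4, Lipa and Fdps) and 7 without a low-count filter, where Insig1, Hmgcs1, Fdps, Lss and Cyp51 joined Stard4 and Lipa. Leaving out a further library gave 0 to 13 genes lower and 0 to 1 higher. The 13 lower genes and the higher one, Scap, appeared without control replicate 3, which leaves control replicate 2 as the lone control, assumed to vary like the A20 libraries. There the median log2 fold change of the 28 genes was -0.46, against -0.25 in the 5-library fit, and leaving out single libraries moved it between -0.46 and -0.084 there and between -0.39 and -0.09 in the 6-library fit. The cause was not tested. Deviations of same-numbered libraries from their group means had correlations of 0.02, 0.11 and -0.03. The control mean includes control replicate 1, which stood apart and so weighs on each control deviation. This check therefore could not exclude that replicate numbers pair the libraries. With the replicate block the 5-library fit called 1 gene lower, Insig1 (adjusted p = 0.0183), and with GC and length offsets and the block 3, Insig1, Stard4 and Fdps. The 6-library fit with the block called 0. The sign differed from the planned fit in 20 of 560 values for 6 libraries and in 31 of 532 for 5 libraries, and none of these genes was called in either fit compared. In 6 libraries, GC and length offsets gave log2 fold changes of -0.064 for Srebf2, -0.076 for Scap and -0.037 for Npc2, and adding the replicate block to them gave -0.022 for Srebf2, -0.047 for Scap and 0.12 for Lipa. Npc2 was at -0.0042 with library size alone, and Lipa at 0.013 with limma-voom and 0.0062 with limma-trend on log2(FPKM + 0.1). Across the fits that each left out 1 library, the value ranged from -0.035 to 0.28 for Srebf2, -0.066 to 0.41 for Scap, -0.87 to 0.16 for Insig1, -0.24 to 0.070 for Sqle and -0.068 to 0.40 for Tm7sf2. The same range was -0.0015 to 0.50 for Scarb1, -0.031 to 0.31 for Npc1, -0.23 to 0.18 for Npc2 and -0.58 to 0.23 for Lipa. In 5 libraries, GC and length offsets gave -0.057 for Srebf1, 0.015 for Npc1 and 0.030 for Soat1. With these offsets and the replicate block the values were -0.094 for Srebf1, 0.068 for Acat2, 0.0015 for Ebp, 0.073 for Scarb1 and 0.027 for Npc1, and with the block alone 0.011 for Srebf2, 0.074 for Acat2, 0.021 for Ebp and 0.088 for Scarb1. Scarb1 was at 0.028 with library size alone, 0.0076 with upper-quartile factors, 0.026 without a low-count filter and 0.0023 with DESeq2. Leaving out a further library gave -0.0087 to 0.40 for Srebf1, -0.088 to 0.021 for Srebf2, -0.28 to 0.080 for Acat2, -0.45 to 0.11 for Sqle and -0.92 to 0.032 for Cyp51. It gave -0.82 to 0.091 for Msmo1, -0.15 to 0.028 for Ebp, -0.10 to 0.11 for Scarb1, -0.17 to 0.13 for Npc1 and -0.20 to 0.12 for Soat1. In simulated counts for 6 libraries 34% of 2-fold changes were recovered, and smaller changes were not simulated.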
